A study of Homo sapiens with 16 samples.

Results

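The genes described here are 10 genes of cellular iron handling, chosen by name: TFRC, SLC11A2, STEAP3, FTH1, FTL, NCOA4, SLC40A1, ACO1, IREB2 and FBXL5. Each matched a single row of a count table of 33121 gene symbols, and all 10 passed the filter on low counts that left 15569 tested genes. The libraries were made from poly-A RNA of HAP1, a near-haploid adherent human line derived from a chronic myeloid leukaemia line, grown in IMDM with fetal bovine serum, and the labels name no added metal or other treatment. There were 4 groups of 4 libraries. The SLC30A10 knockout carries a deletion of SLC30A10, the gene of a manganese exporter of the plasma membrane, and has its own SLC30A10+/+ control. The second knockout carries a deletion of another gene and has a wild-type control of its own, called here the second control. A knockout with its own control is called an experiment here, a name for the pairing and not for a known batch. The labels give both control sets one line identifier, and each deletion has a single identifier of its own, with no number of clones given. Nothing in the labels says that the libraries of a group came from separate cultures, so the p-values measure the spread between these libraries, which may be technical.

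Cells take up iron mostly as transferrin bound to the transferrin receptor, which TFRC encodes. In the endosome the iron is reduced by the ferrireductase STEAP3 and leaves through the transporter DMT1, the product of SLC11A2. Iron that is not used is stored in ferritin, a shell of heavy (FTH1) and light (FTL) subunits, and is recovered when the cargo receptor NCOA4 takes ferritin to the lysosome. Ferroportin, the product of SLC40A1, is the iron exporter. The iron regulatory proteins IRP1 (ACO1) and IRP2 (IREB2) bind a stem-loop in messenger RNA, the iron-responsive element, when iron is scarce. Binding in the 3' untranslated region of TFRC protects the RNA from decay, and binding in the 5' untranslated region of FTH1, FTL and SLC40A1 blocks translation. FBXL5 is the iron-sensing subunit of the ubiquitin ligase that degrades IRP2. By this background, more IRP binding goes with more TFRC RNA and less binding with less TFRC RNA, and the same holds for the SLC11A2 transcripts that carry the element, whereas for the 5' targets the effect is on protein synthesis, which counts of poly-A RNA do not measure.

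The elements are shown because the region that holds them differs between targets whose RNA level the IRPs are known to set and targets whose translation they set. A match to the pattern does not by itself mark a gene as a target. One transcript per gene, the longest that GENCODE 29 marks as principal (GRCh38), was searched on the sense strand for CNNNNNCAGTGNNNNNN, in which the 5 bases after the first C can pair with the last 5, G with T allowed. Of 19688 protein-coding transcripts, 1.22% held a match with all 5 pairs, and 0.107% held one in the 5' untranslated region. TFRC held 4 matches, all in its 3' untranslated region, and was the only 1 of the 19688 transcripts with 4 or more. FTH1, FTL and SLC40A1 held 1 match each, in the 5' untranslated region. SLC11A2 had a match with 4 pairs in the 3' untranslated region, a looser pattern that 9.69% of transcripts held somewhere and 3.68% held in that region. That looser pattern also occurred once in the 3' untranslated region of IREB2 and once in that of ACO1, while NCOA4, FBXL5 and STEAP3 held neither. The sites of TFRC, FTH1, FTL, SLC40A1 and SLC11A2 are printed with 6 flanking bases on either side. The looser matches of IREB2 and ACO1 are not printed. The capitals mark the unpaired C and the 6 bases of the loop.
TFRC, chr3:196050979-196051007, minus strand: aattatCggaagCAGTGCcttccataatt
TFRC, chr3:196050575-196050603, minus strand: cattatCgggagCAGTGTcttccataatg
TFRC, chr3:196050510-196050538, minus strand: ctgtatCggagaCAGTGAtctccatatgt
TFRC, chr3:196050463-196050491, minus strand: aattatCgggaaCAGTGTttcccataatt
FTH1, chr11:61967574-61967602, minus strand: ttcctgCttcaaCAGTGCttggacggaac
FTL, chr19:48965335-48965363, plus strand: ctcttgCttcaaCAGTGTttggacggaac
SLC40A1, chr2:189580661-189580689, minus strand: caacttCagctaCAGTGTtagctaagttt
SLC11A2, chr12:50988269-50988297, minus strand: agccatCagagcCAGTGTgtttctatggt
These are matches of letters in the reference, and no binding was measured in the cells.

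Library totals were between 16058856 and 16648151 counts. The SLC30A10 RNA was counted 6 to 9 times per SLC30A10 control library and 3 to 11 times per library labelled SLC30A10 knockout, so it does not show the deletion. All 5 haematopoietic markers (PTPRC, CD34, SPI1, CD33, MPO), all 5 macrophage markers and all 5 hepatocyte markers lay under 1 CPM in every library, where CPM is the count scaled to the size of its library. Of 7 erythroid markers 4 did so, with HBB at 0, HBA1 at 2.36 to 10.1 CPM and EPOR at 9.93 to 14.8 CPM. The 6 markers of an adherent line summed to 2780 to 4130 CPM, mostly from ACTB (1980 to 3300 CPM) and VIM (353 to 660 CPM). FN1 had 40.9 to 118 CPM and KRT18 33.5 to 53.6 CPM. KRT8, at 2.48 to 10.5 CPM, was about as low as HBA1, and the lowest LGALS1 value was 7.11 CPM. The sum therefore does not show that each marker of that list was high.

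Compared per length, with CPM divided by the kilobases of merged exons in GENCODE 29, ferritin was the most abundant of the 10. Merged exons exceed the transcript searched above by unequal amounts. FTH1 has 2030 against 1229 bases, NCOA4 4079 against 2307, SLC11A2 10145 against 4164, and FTL 878 in both. The order of genes that lie near each other therefore depends on the length chosen. In the SLC30A10 control FTL had 335 ± 14.4 and FTH1 302 ± 11.1 CPM per kilobase (SD, n = 4). TFRC followed at 49.9 ± 5.14, IREB2 at 31.0 ± 1.03, NCOA4 at 26.5 ± 0.618 and ACO1 at 17.2 ± 0.393 CPM per kilobase. FBXL5 stood at 13.7 ± 0.886, STEAP3 at 10.7 ± 0.216, SLC11A2 at 6.69 ± 0.210 and SLC40A1 at 1.39 ± 0.0156 CPM per kilobase. By these merged lengths, IREB2 at 34.4 ± 1.23, NCOA4 at 34.1 ± 1.31 and TFRC at 34.0 ± 1.46 CPM per kilobase differed by less than their spread in the SLC30A10 knockout. In the second control, TFRC at 27.9 ± 2.20 and NCOA4 at 26.3 ± 0.771 CPM per kilobase were likewise within their spread of each other, below IREB2 at 37.6 ± 0.385. TFRC (29.9 ± 5.41) and NCOA4 (25.4 ± 1.38) were again within their spread in the second knockout, as were FBXL5 (16.4 ± 0.973) and ACO1 there. SLC40A1 was the lowest member in every group, with 61 to 102 counts per library.

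**Figure D1:**
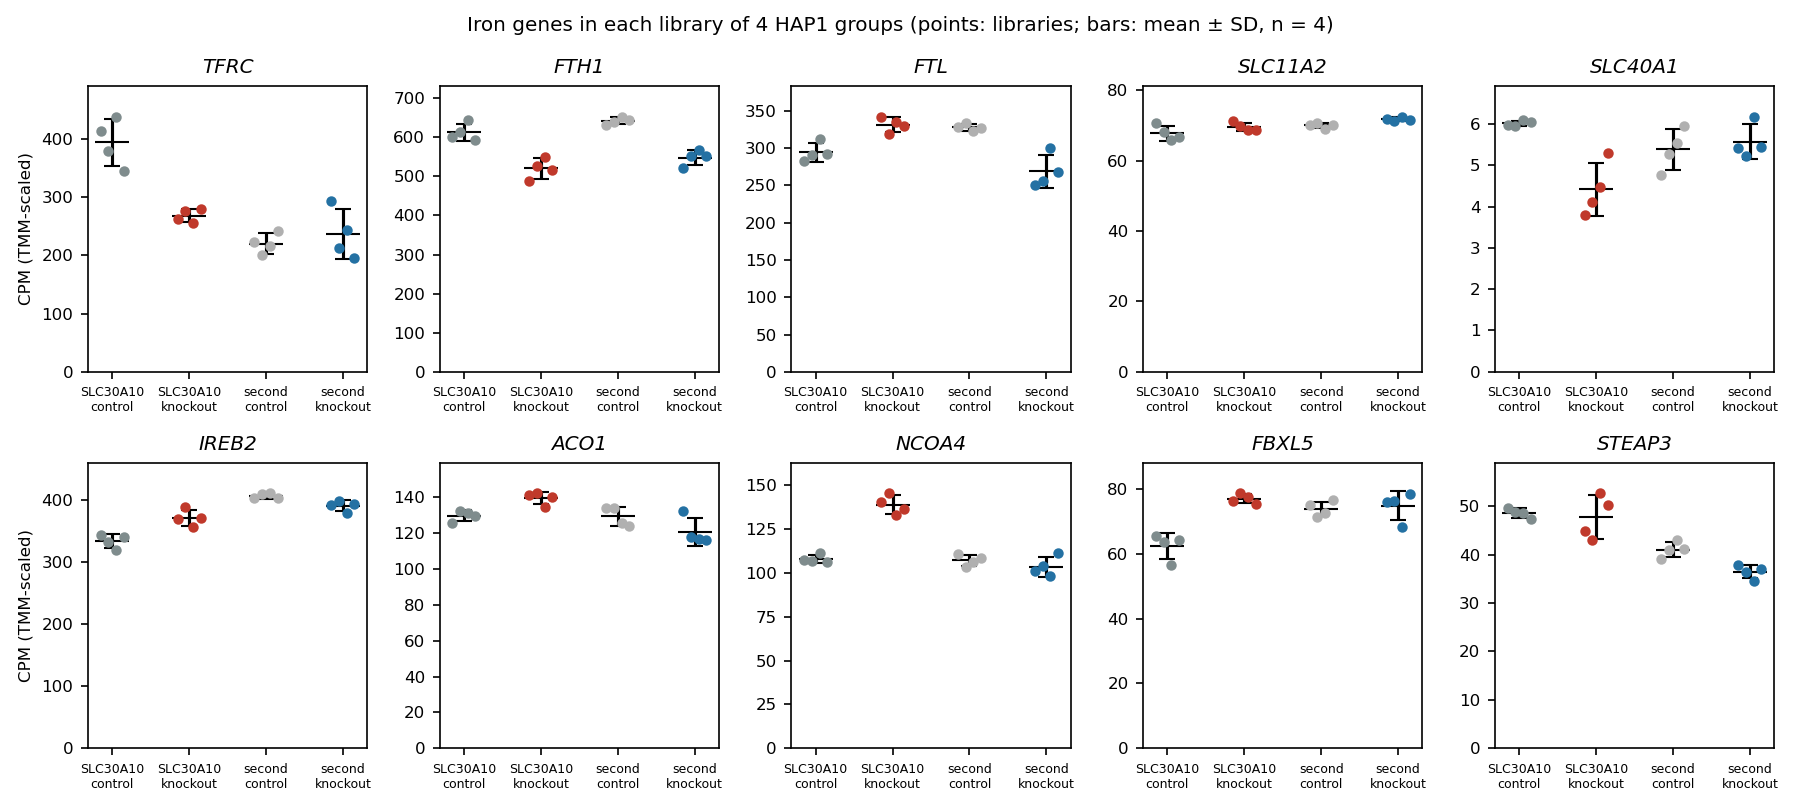
Level of each of the 10 iron genes in every library, in CPM on a linear axis that starts at 0, with points for libraries and bars for the mean ± SD (n = 4). FTH1 is lower in both knockouts than in either control, NCOA4 is higher in the SLC30A10 knockout than in the other 3 groups, and the TFRC level of the SLC30A10 control stands above the rest.

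Deletion of SLC30A10 was set against its control to ask which of these genes change with it. Of the 10 members 7 passed an adjusted p of 0.05 (edgeR quasi-likelihood test, Benjamini-Hochberg over all tested genes), beside 41.4% of all tested genes in the same comparison. NCOA4, FBXL5, FTL and IREB2 rose, 4 members beside 21.2% of all genes, and TFRC, SLC40A1 and FTH1 fell, 3 members beside 20.2%. All 7 changed by less than 1.5-fold. The median absolute log2 fold change was 0.20 over the members and 0.17 over all tested genes, and the median signed change was 0.07 over the members. In the second knockout 2 members passed, FTH1 and FTL, both lower, beside 13.7% of all genes called, 6.67% higher and 7.03% lower. No member rose there by edgeR, 0 also at an unadjusted p under 0.05 and 0 by DESeq2. The median absolute log2 fold change of the members was 0.08 in the second knockout, against 0.09 over all tested genes.

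**Figure D2:**
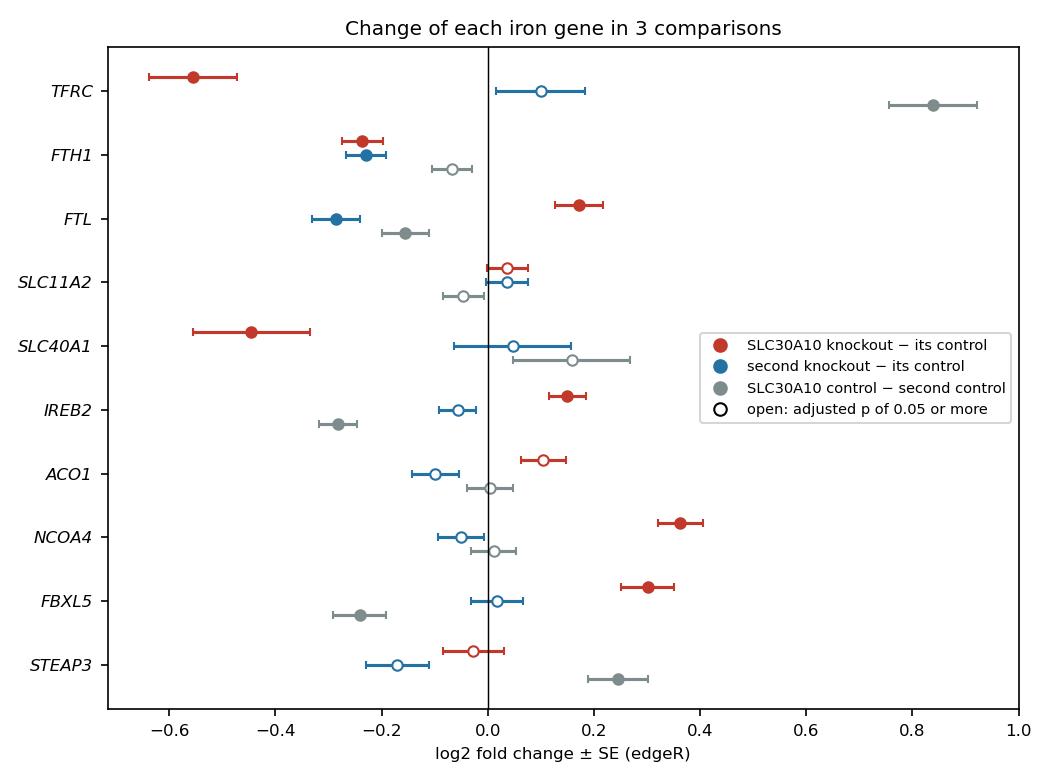
Log2 fold change ± SE of each member (horizontal axis) in the SLC30A10 knockout, the second knockout and between the control sets, with filled points for an adjusted p under 0.05. FTH1 lies at -0.24 and -0.23 in the knockouts, FTL on opposite sides of 0, and the TFRC difference between the control sets (0.84) is the largest value plotted.

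Among the uptake genes TFRC (chr3:196027183-196082189) changed most. Its level was 413, 379, 438 and 345 CPM in SLC30A10 control libraries 1 to 4 and 262, 276, 255 and 279 CPM in the knockout libraries. Every knockout library lay below every control library. The mean was 394 ± 40.5 CPM in the control and 268 ± 11.5 CPM in the knockout (SD, n = 4). TFRC fell by 0.56 ± 0.08 on the log2 scale (SE; adjusted p 5.02e-06, edgeR). In the second experiment TFRC had 223, 200, 215 and 242 CPM in the control and 293, 213, 243 and 195 CPM in the knockout. Those groups overlapped, and the spread in the second knockout (43 CPM, 18.1% of the mean) was the widest of any member in any group, with library 1 the highest. The log2 fold change there was 0.10 ± 0.08 (SE), with an adjusted p of 0.490 and a 95% interval of -0.07 to 0.27 (edgeR), and it was -0.014 without second knockout library 1. The effects of the deletions on TFRC differed by -0.66 ± 0.12 on the log2 scale (SE, adjusted p 9.75e-05, edgeR).

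The TFRC fall depends on which wild-type libraries it is set against. The SLC30A10 control held 1.79 times as much TFRC RNA as the second control, a log2 difference of 0.84 ± 0.08 (SE; adjusted p 4.21e-08, edgeR), although the labels identify both with one line. The SLC30A10 knockout libraries lay between the control sets. Against both control sets pooled the log2 fold change was -0.20 with an adjusted p of 0.454, and against the second control alone it turned to 0.28 with an adjusted p of 0.00743 (edgeR). TFRC RNA in the SLC30A10 knockout therefore stood below its own control, the direction that background gives for less IRP binding, and above the other control, the opposite direction. Group and experiment cannot be told apart in the latter comparison. The 10 nearest tested genes on chromosome 3 had a median log2 fold change of -0.06 in the SLC30A10 knockout.

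SLC11A2 (chr12:50979401-51028566), whose product moves iron out of the endosome, was the steadiest member. It had 65.9 to 70.8 CPM in the SLC30A10 control, 68.7 to 71.2 CPM in the SLC30A10 knockout, 69.1 to 70.8 CPM in the second control and 71.4 to 72.5 CPM in the second knockout. Knockout and control overlapped in the first experiment. In the second, every knockout library lay above every control library by a small margin. The log2 fold change was 0.04 ± 0.04 (SE) in both knockouts, with adjusted p-values of 0.482 and 0.609 and a 95% interval of -0.04 to 0.12 in each (edgeR). SLC11A2 makes transcripts with and without the element printed above, and a count per gene does not separate them. Its match, with 4 pairs, is of the looser kind that IREB2 and ACO1 also hold.

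STEAP3 (chr2:119223831-119265652), the endosomal ferrireductase, differed more between experiments than with either deletion. It had 49.7, 48.8, 48.6 and 47.3 CPM in the SLC30A10 control and 44.9, 43.1, 52.7 and 50.2 CPM in the SLC30A10 knockout, groups that overlapped (log2 fold change -0.03 ± 0.06, SE, adjusted p 0.739, edgeR). The second control had 39.0, 40.9, 43.0 and 41.2 CPM and the second knockout 37.9, 36.4, 34.6 and 36.9 CPM. There the groups did not overlap, but the log2 value of -0.17 ± 0.06 (SE) had an adjusted p of 0.0548 (edgeR). It passed without SLC30A10 knockout library 2 (0.0441) or 3 (0.0427), which enter only through the shared spread, and against pooled controls (-0.30, adjusted p 0.00755). Between the control sets STEAP3 was 0.25 ± 0.06 higher in the SLC30A10 control (log2, SE, adjusted p 0.00143, edgeR).

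Of the storage genes FTH1 (chr11:61959718-61967660), the subunit that oxidizes iron on entry to the ferritin shell, fell in both knockouts. It had 600, 612.5, 644 and 593 CPM in the SLC30A10 control and 487, 527, 550 and 517 CPM in the SLC30A10 knockout. In the second experiment the control had 632, 639, 653 and 643 CPM and the knockout 522, 551, 566 and 551 CPM. All 8 knockout libraries lay below all 8 control libraries. The log2 fold change was -0.24 ± 0.04 (SE, adjusted p 1.60e-05) in the SLC30A10 knockout and -0.23 ± 0.04 (SE, adjusted p 7.91e-05) in the second knockout (edgeR), falls to 0.849 and 0.853 of the control. The difference between these effects was -0.01, with a 95% interval of -0.12 to 0.10 and an adjusted p of 0.939 (edgeR). The control sets themselves differed by -0.07 ± 0.04 (SE, adjusted p 0.166, edgeR). Against the control of the other experiment the log2 fold changes were -0.30 (adjusted p 3.80e-07) and -0.16 (adjusted p 0.00109, edgeR).

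FTL (chr19:48965301-48966878), the subunit that helps the iron core to form, moved in opposite directions. The SLC30A10 control had 282, 291, 312 and 292 CPM and the SLC30A10 knockout 342, 319, 335 and 330 CPM, all above the control. The second control had 328, 333, 323 and 326 CPM and the second knockout 251, 256, 300 and 268 CPM, all below the control. FTL rose by 0.17 ± 0.05 in the SLC30A10 knockout (log2, SE, adjusted p 0.00318, edgeR). Deletion of the second gene went with a fall by 0.29 ± 0.05 (log2, SE, adjusted p 3.71e-05, edgeR). The effects differed by 0.46 ± 0.06 (SE, adjusted p 3.00e-06, edgeR). The rise was the less stable of these values: the SLC30A10 control lay 0.16 ± 0.05 below the second control (log2 difference -0.16, adjusted p 0.00799, edgeR), and against the second control the log2 fold change was 0.02 (adjusted p 0.788). The fall in the second knockout passed against pooled controls (-0.21, adjusted p 0.00898) and against the SLC30A10 control (-0.13, adjusted p 0.0188).

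The ratio of FTH1 RNA to FTL RNA was accordingly lower in the SLC30A10 knockout than in its control. FTH1 counts per FTL count were 2.13, 2.11, 2.06 and 2.03 in the SLC30A10 control and 1.42, 1.65, 1.64 and 1.57 in the SLC30A10 knockout. Ratios in the second control were 1.93, 1.92, 2.02 and 1.97 and the second knockout 2.08, 2.15, 1.89 and 2.05. The SLC30A10 knockout was below every other library, with a mean of 1.57 ± 0.105 (SD, n = 4), and both groups of the second experiment overlapped. The FTH1 and FTL genes have many near-identical processed copies in the genome, and how shared reads were counted is not given in the sources used here, so the absolute levels are uncertain. Only 3 rows of the table carry ferritin pseudogene names: FTH1P3 with 2 to 14 counts per library, FTH1P18 with at most 1 and FTLP10 at 0.

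NCOA4 (chr10:46005088-46030714), the receptor that delivers ferritin to the lysosome, showed the rise least dependent on the choice of control. It had 140, 146, 133 and 137 CPM in the SLC30A10 knockout. The SLC30A10 control had 108, 107, 112 and 106 CPM, the second control 111, 103.5, 106 and 108 CPM, and the second knockout 101, 104, 98.2 and 111 CPM. The SLC30A10 knockout lay above the other 12 libraries, which overlapped among themselves. NCOA4 rose by 0.36 ± 0.04 in the SLC30A10 knockout (log2, SE, adjusted p 9.91e-08, edgeR), to 1.29 times its control. The log2 fold change was 0.37 against pooled controls (adjusted p 2.68e-07) and 0.37 against the second control (adjusted p 6.40e-08, edgeR). The second knockout had -0.05 ± 0.04 (SE, adjusted p 0.501), and the effects differed by 0.41 ± 0.06 (SE, adjusted p 5.78e-06, edgeR). The control sets differed by 0.01 (adjusted p 0.863, edgeR). The 10 nearest tested genes on chromosome 10 had a median log2 fold change of 0.10 in the SLC30A10 knockout, 3 higher and 2 lower past the threshold.

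SLC40A1 (chr2:189560579-189583758), the iron exporter, was barely expressed and fell in the SLC30A10 knockout. It had 5.97, 5.95, 6.10 and 6.04 CPM in the SLC30A10 control and 3.79, 4.10, 4.48 and 5.29 CPM in the knockout, which did not overlap. The log2 fold change was -0.45 ± 0.11 (SE, adjusted p 0.00263, edgeR), -0.37 against pooled controls (adjusted p 0.00924) and -0.29 against the second control (adjusted p 0.0472). The second control had 4.77, 5.27, 5.54 and 5.95 CPM and the second knockout 5.42, 5.21, 6.18 and 5.45 CPM, groups that overlapped (log2 fold change 0.05 ± 0.11, SE, 95% interval -0.18 to 0.28, adjusted p 0.840, edgeR). The effects differed by -0.49 ± 0.16 (SE, adjusted p 0.0195, edgeR). Without SLC30A10 knockout library 1, the lowest, that difference was -0.43 with an adjusted p of 0.0513.

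Among the sensors IREB2 (chr15:78437431-78501456), which encodes IRP2, had more RNA than ACO1 in every library. It had 344, 333, 319 and 341 CPM in the SLC30A10 control and 370, 389, 356 and 370 CPM in the SLC30A10 knockout, which lay wholly above. Second control libraries had 403, 409, 411 and 403 CPM and the second knockout 393, 399, 379 and 393 CPM, which lay wholly below. The rise in the SLC30A10 knockout was 0.15 ± 0.04 (log2, SE, adjusted p 0.00114), and the value in the second knockout was -0.06 ± 0.04 (SE, adjusted p 0.328, edgeR). Their difference was 0.21 ± 0.05 (SE, adjusted p 0.00206, edgeR). As with TFRC, the control sets differed by more than either knockout did, with the SLC30A10 control lower (log2 difference -0.28 ± 0.04, SE, adjusted p 9.52e-07, edgeR). Against pooled controls the value in the SLC30A10 knockout was 0.003 (adjusted p 0.980), and against the second control it turned to -0.13 (adjusted p 0.00339, edgeR).

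ACO1 (chr9:32384603-32454769) encodes IRP1, which is a cytosolic aconitase when it holds an iron-sulphur cluster. It had 126, 133, 131 and 130 CPM in the SLC30A10 control and 142, 142, 135 and 140 CPM in the SLC30A10 knockout. These did not overlap, and the log2 fold change of 0.11 ± 0.04 (SE) had an adjusted p of 0.0533 (edgeR). It passed by a small margin with the replicate number as a block (0.0379), with only these 8 libraries in the fit (0.0269) and against pooled controls (0.0427). Second control libraries had 134, 134, 126 and 124 CPM and the second knockout 133, 118, 117 and 116 CPM, groups that overlapped through second knockout library 1 (log2 fold change -0.10 ± 0.04, SE, adjusted p 0.146, edgeR). Without that library the value was -0.140 with an adjusted p of 0.0228. The effects of the deletions on ACO1 differed by 0.20 ± 0.06 (log2, SE, adjusted p 0.0122, edgeR). The control sets differed by less than 0.01 (log2 0.0045, adjusted p 0.944, edgeR).

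FBXL5 (chr4:15604539-15681679), which targets IRP2 for degradation when iron is plentiful, had 65.6, 63.6, 56.6 and 64.4 CPM in the SLC30A10 control and 76.3, 78.7, 77.6 and 75.5 CPM in the SLC30A10 knockout. The groups did not overlap, and FBXL5 rose by 0.30 ± 0.05 (log2, SE, adjusted p 2.05e-05, edgeR). The second control had 75.0, 71.5, 72.7 and 76.5 CPM and the second knockout 75.9, 76.3, 68.4 and 78.6 CPM, which overlapped (log2 fold change 0.02 ± 0.05, SE, adjusted p 0.869). The effects differed by 0.28 ± 0.07 (SE, adjusted p 0.00259, edgeR). Here it was the SLC30A10 control that stood apart, 0.24 below the second control (log2 difference -0.24 ± 0.05, SE, adjusted p 4.31e-04, edgeR), and the other 3 groups had means of 73.9 to 77.1 CPM. Against pooled controls the rise was 0.18 (adjusted p 0.0446), and against the second control 0.06 (adjusted p 0.339, edgeR).

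**Figure D3:**
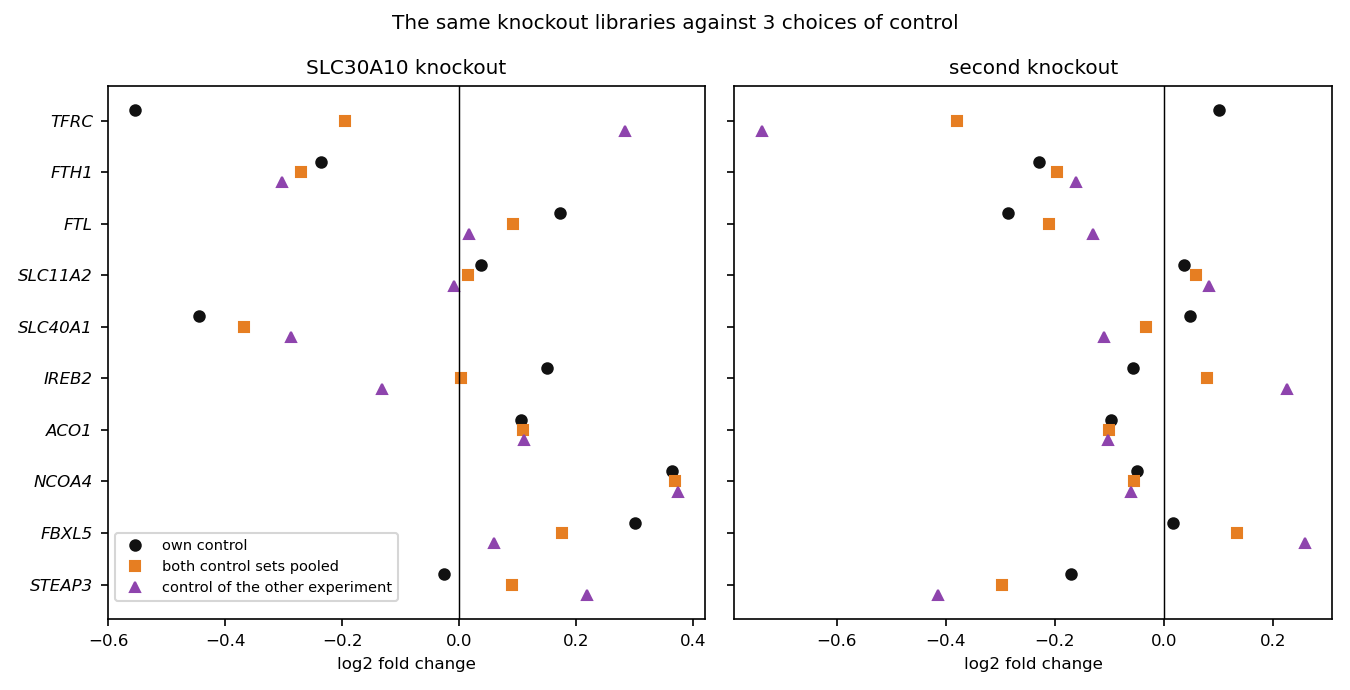
Log2 fold change of each member when the same knockout libraries are set against their own control, both control sets pooled, or the control of the other experiment. The values for FTH1, FTL, NCOA4, ACO1 and FBXL5 stay on one side of 0 in each knockout. FTL and FBXL5 come close to 0 in the SLC30A10 knockout against the control of the other experiment. Those for TFRC and IREB2 cross 0 in both knockouts.

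Over the members, then, 8 of 10 had knockout and control libraries that did not overlap in the SLC30A10 experiment, beside 38.3% of all tested genes, and 5 of 10 in the second experiment, beside 16.3%. The control sets did not overlap for 5 of 10, beside 36.3% of all tested genes. By edgeR 5 members differed between the control sets, beside 39.3% of all genes: TFRC and STEAP3 were higher (18.5% of all genes) and FTL, IREB2 and FBXL5 lower (20.8%) in the SLC30A10 control. The effects of the deletions differed for 7 of 10 members, beside 31.3% of all genes, with SLC11A2, FTH1 and STEAP3 the exceptions. The difference was above 0 for 5 of them, beside 16.7% of all genes, and below 0 for TFRC and SLC40A1, beside 14.6%. Within the SLC30A10 control, library 3 had the most TFRC, FTH1, FTL and NCOA4 and the least IREB2 and FBXL5. Leaving that library out changed no call for any member in the 4 comparisons.

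The genes whose pattern was most like that of TFRC were sought among 11696 tested genes whose mean reached 5 CPM, by Pearson's correlation of log2 CPM over the 16 libraries. These libraries fall into 4 groups with different TFRC means, so r describes mainly the order of the groups. STEAP1, a member of the STEAP family, came first (r = 0.952), with 25.1 CPM in the SLC30A10 control, 20.4 in its knockout, 17.5 in the second control and 18.0 in the second knockout. HERC6 (0.942), HMGN5 (0.941), CDH6 (0.937) and LIN28B (0.936) followed. The most opposite were SH3BP4 and ATF7IP (both -0.972), LOC100289097 (-0.966), NIPAL3 (-0.957) and ADAMTS7 (-0.946). Of the other members IREB2 (-0.89), FBXL5 (-0.76) and SLC11A2 (-0.60) ran opposite to TFRC, STEAP3 (0.64) ran with it, and FTH1 had an r of 0.087.

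Other genes of iron metabolism were taken from 5 lists. In the list of iron entry and release, 18 genes were tested. Of these 7 rose, beside 21.2% of all tested genes, and 1 fell, beside 20.2%, in the SLC30A10 knockout, with a median log2 fold change of 0.15 beside -0.005 over all tested genes. Between the control sets 4 of the 18 were higher and 7 lower in the SLC30A10 control, beside 18.5% and 20.8% of all tested genes. SLC39A14, which carries manganese, zinc and iron into the cell, had 199 CPM in the control and 309 ± 8.82 CPM in the knockout (SD, n = 4) and rose by 0.64 ± 0.08 on the log2 scale (SE, adjusted p 2.06e-07, edgeR). The control sets differed in SLC39A14 by 0.46 (log2, adjusted p 5.57e-05, edgeR). All 10 of its nearest tested genes also rose, with a median of 1.2 on the log2 scale. TFR2, a second transferrin receptor of liver and erythroid cells, rose by 0.36 ± 0.09, the mitochondrial iron carrier SLC25A28 by 0.29 ± 0.07, and SLC48A1, a haem transporter, by 0.30 ± 0.09 (log2, SE). Between the control sets SLC25A28 (-0.23, adjusted p 0.00878) and SLC48A1 (-0.28, adjusted p 0.0120, edgeR) were lower in the SLC30A10 control, by nearly as much as they rose. STEAP2 rose by 0.25 ± 0.06 and CYBRD1 by 0.185 ± 0.075 (log2, SE). They too were lower in the SLC30A10 control than in the second (-0.20, adjusted p 0.0110, and -0.38, adjusted p 2.19e-04, edgeR). STEAP1 fell by 0.30 ± 0.08 (log2, SE) and was 0.52 higher in the SLC30A10 control than in the second (adjusted p 1.76e-05, edgeR). HMOX1, the inducible haem oxygenase, had a log2 fold change of -0.15 ± 0.09 (SE, adjusted p 0.169, edgeR). In the second knockout NEO1, a co-receptor for signals that control hepcidin, fell by 0.44 ± 0.05 (log2, SE, adjusted p 2.19e-07, edgeR), and it rose by 0.28 ± 0.05 in the SLC30A10 knockout, a difference with an adjusted p of 1.08e-08. The control sets differed in NEO1 by -0.18 (adjusted p 0.00720, edgeR). No gene of the list rose in the second knockout by edgeR, beside 6.67% of all tested genes, 0 also at an unadjusted p under 0.05 and 0 by DESeq2. By edgeR 1 fell there, beside 7.03% of all tested genes, and 4 were lower at an unadjusted p under 0.05.

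Of 11 tested genes for iron chaperones, ferritin turnover and control of the IRPs, 1 rose and 2 fell in the SLC30A10 knockout, beside 21.2% higher and 20.2% lower of all tested genes. Of the partners of FBXL5 in its ligase, SKP1 rose by 0.18 ± 0.03, CUL1 fell by 0.27 ± 0.04 and RBX1 had a log2 fold change of -0.14 ± 0.07 (SE, adjusted p 0.130, edgeR). The control sets differed in the opposite sense, by -0.17 for SKP1 (adjusted p 2.61e-04) and 0.19 for CUL1 (adjusted p 3.09e-04, edgeR). PCBP1, a chaperone that delivers iron to ferritin, fell in both knockouts, by 0.17 ± 0.04 in each (log2, SE), with adjusted p-values of 0.00183 and 0.00416 (edgeR). The test of the difference of its effects had an adjusted p of 0.940 (edgeR). The SLC30A10 control lay 0.13 above the second control (adjusted p 0.0147, edgeR), most of the size of the fall in the SLC30A10 knockout. PCBP1 had 463 CPM in the SLC30A10 control, 412 in its knockout, 423 in the second control and 375 in the second knockout. The second knockout mean was thus below both control means by more than that of the SLC30A10 knockout. PCBP4 was the other of 2 genes of this list that fell in the second knockout, beside 7.03% of all tested genes, at -0.16 ± 0.05 (log2, SE, adjusted p 0.0347, edgeR). Of 7 tested genes from other transcripts described with an iron-responsive element, 0 rose and 2 fell in the SLC30A10 knockout by edgeR and by DESeq2, beside the same 21.2% and 20.2% of all genes. APP, the amyloid precursor protein, fell by 0.31 ± 0.04 (log2, SE) and was 0.22 higher in the SLC30A10 control than in the second (adjusted p 3.26e-04, edgeR). At an unadjusted p under 0.05, 2 were higher and 2 lower. Of the 7, 0 passed in the second knockout by edgeR, beside 13.7% of all tested genes, or by DESeq2, and 2 had an unadjusted p under 0.05.

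Iron-sulphur cluster assembly had 31 tested genes, of which 5 rose and 7 fell in the SLC30A10 knockout and 2 rose and 1 fell in the second. All tested genes had 21.2% higher and 20.2% lower in the former and 6.67% higher and 7.03% lower in the latter, so the counts of the list lie near or below those shares. The median log2 fold changes were -0.03 and -0.01. NUBP1, a scaffold of the cytosolic assembly pathway, rose by 0.47 ± 0.08, as did FAM96B by 0.16 ± 0.05, while NARFL fell by 0.42 ± 0.07 and CIAPIN1 by 0.29 ± 0.06 (log2, SE). NARFL and CIAPIN1 were also higher in the SLC30A10 control than in the second, by 0.27 and 0.29. NUBPL rose by 0.26 ± 0.06 and ISCA1 by 0.18 ± 0.06 in the second knockout, while ISCA2 fell by 0.20 ± 0.06 (log2, SE). The SLC30A10 control was below the second control in ISCA2 (-0.17, adjusted p 0.0194) and NUBPL (-0.22, adjusted p 0.00412). For ISCA1 that difference was -0.09 (adjusted p 0.229, edgeR). Of 13 tested genes of haem synthesis, 2 rose and 4 fell in the SLC30A10 knockout (21.2% and 20.2% of all tested genes) and 1 fell in the second (7.03%). UROS, an enzyme of the middle of the pathway, had 27.0 ± 1.54 CPM in the control and 17.8 ± 0.884 CPM in the knockout (SD, n = 4) and fell by 0.60 ± 0.07 on the log2 scale (SE, adjusted p 9.82e-08, edgeR). UROS was 0.20 higher in the SLC30A10 control than in the second (log2, adjusted p 0.0191, edgeR). CLPX, which activates the first enzyme of the pathway, rose by 0.21 ± 0.04 (log2, SE), where the control sets differed by -0.18 (adjusted p 5.68e-04, edgeR). TMEM14C fell by 0.17 ± 0.05 in the second knockout and by 0.12 ± 0.05 in the SLC30A10 knockout (log2, SE), with an adjusted p of 0.572 for the difference (edgeR). The control sets differed in TMEM14C by -0.18 (log2, adjusted p 0.00317, edgeR), about the size of the fall in the second knockout. SLC39A14 and UROS were the only tested genes of the 5 lists past 1.5-fold in either knockout. Between the control sets 13 of the 31 assembly genes were higher and 3 lower in the SLC30A10 control, beside 18.5% and 20.8% of all tested genes.

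**Figure D4:**
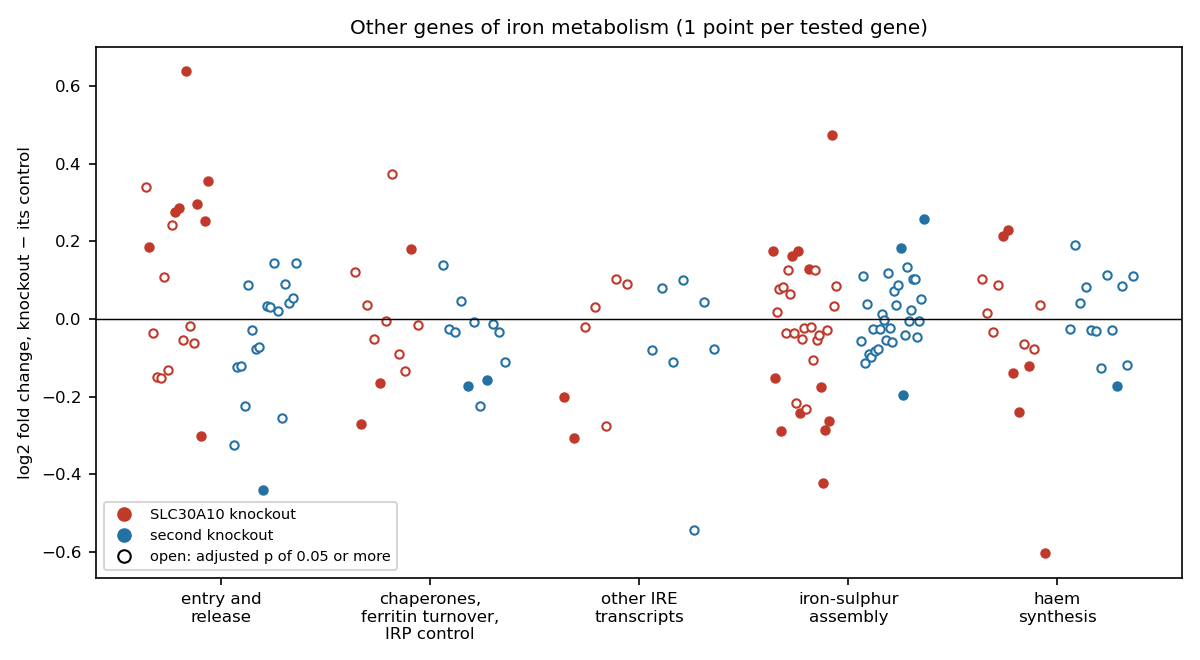
Log2 fold change (vertical axis) of every tested gene of the 5 lists in the SLC30A10 knockout and the second knockout, 1 point per gene, filled for an adjusted p under 0.05. In the entry and release list 7 of 18 genes rose in the SLC30A10 knockout (21.2% of all tested genes), SLC39A14 the most (0.64), and UROS of haem synthesis lies lowest (-0.60). Between the control sets, not plotted, 4 of those 18 were higher and 7 lower in the SLC30A10 control.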

How the data were processed

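The authors deposited whole-number counts per gene symbol for 16 poly-A libraries. The submitters' processing notes name HISAT2, featureCounts, DESeq2 and hg38, without versions; the annotation and strand setting are not given in the sources used here. A deposited table of normalized signal equals the counts times a constant per library, within 5.23e-06, and served for an alternative scaling. The gene deleted in the second knockout and some genes of the lists are not reported here.

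Counts were filtered by edgeR 4.0.16 (minimum count 10, minimum total 15, R 4.3.3), scaled with TMM factors and fitted with one mean per group over all 16 libraries. Quasi-likelihood F tests were adjusted by Benjamini-Hochberg over 15569 genes, with a threshold of 0.05. Each SE is the log2 fold change divided by the square root of F, and 95% intervals are not adjusted for multiple tests. On simulated counts for the SLC30A10 comparison with 15506 genes, 81% of 1.5-fold and 92% of 2-fold changes were recovered, and 2.26% of calls were false. The simulation changed a small set of genes in the SLC30A10 knockout group alone, with independent libraries and the same dispersion for every gene. It gives no recovery rate below 1.5-fold, where all members called in the knockouts lay. Coordinates, lengths and sequences come from GENCODE 29 (GRCh38), and the order of neighbours, 5 on each side, from RefSeq GRCh38.p14.

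Members and lists were chosen with earlier results of these data known. Named genes were all members, up to 3 genes of each list called in a knockout, taken by smallest adjusted p, and the 5 genes most and least like TFRC. TFR2, SLC48A1, HMOX1, STEAP1, STEAP2, CYBRD1, RBX1 and FAM96B of the lists were named after their values were seen. Alternatives were other scalings, filters, thresholds and controls, DESeq2 1.42.0, a replicate block, and each library left out. Replicate pairs differed by more than sampling noise (chi-square per degree of freedom 1.60 to 6.43). Floors and intervals of counts cover counting error only.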

Additional observations from a re-analysis of the deposited data

Results flagged for a closer look

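In 1 of 40 sets of 4 libraries (10 members in 4 groups) a library lay far from the other 3 by Dixon's test, where chance gives about 2. It was ACO1 in second knockout library 1, with 133 CPM against 116 to 118 CPM in the other 3. The same library had the most TFRC and the least FTH1 and FTL of its group, which was not tested further.

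The effects of the deletions differed, by the edgeR test of the difference itself, for 7 members. On the log2 scale the effect in the SLC30A10 knockout minus that in the second knockout was -0.66 for TFRC, -0.49 for SLC40A1, 0.46 for FTL, 0.41 for NCOA4, 0.28 for FBXL5, 0.21 for IREB2 and 0.20 for ACO1. TFRC, FTL, IREB2 and FBXL5 also differed between the control sets. Each deletion was present in a single experiment, under a single line identifier. For all 7 members the deletion, its line and the experiment therefore cannot be fully told apart.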

How the results depend on the processing

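Under other scalings, filters, DESeq2 and the fit of only the groups compared, every member called in a comparison was called in the same direction. Log2 values there that changed sign were those of SLC11A2 in the difference of effects: -0.005 with median-of-ratios factors, -0.024 with library totals, -0.003 with deposited factors, -0.004 with a mean count of 50, and -0.005 by DESeq2. At an adjusted p of 0.01, 1229 genes passed in the second knockout. A 1.5-fold change left 1625 genes and 0 members for the SLC30A10 deletion, 665 and 0 in the second, 1776 and 1 (TFRC) in the difference, and 878 and 1 (TFRC) between controls.

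With pooled controls, STEAP3 in the SLC30A10 knockout turned to 0.090, and in the second knockout TFRC turned to -0.379, SLC40A1 to -0.034 and IREB2 to 0.078. Against the control set of the other experiment, chosen after seeing the data, 7445 genes and 6 members passed in the second knockout, where TFRC was -0.738, SLC40A1 -0.111 and IREB2 0.225. In the SLC30A10 knockout TFRC was then 0.284, SLC11A2 -0.009, IREB2 -0.132 and STEAP3 0.218. The cause was not tested.

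The replicate numbers recur in every group, but same-numbered libraries did not deviate together (mean correlation -0.0361 in the SLC30A10 experiment, 0.0591 in the other and 0.0278 over the control sets). With the replicate block 6497, 2160, 4882 and 6181 genes passed (deletion of SLC30A10, second deletion, difference, controls), and 8, 2, 7 and 5 members. ACO1 in the SLC30A10 knockout was the member added.

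Leaving out each library gave 5657 to 6617 genes and 7 to 8 members for the SLC30A10 deletion, 1570 to 2421 and 2 to 3 in the second, 4442 to 5044 and 6 to 7 in the difference, and 5053 to 6301 and 5 between controls. Signs changed only for values not called: STEAP3 (-0.079 to 0.020) for the SLC30A10 deletion, TFRC (-0.014 to 0.185), SLC40A1 (-0.005 to 0.100) and FBXL5 (-0.004 to 0.060) in the second, FTH1 (-0.039 to 0.023) and SLC11A2 (-0.017 to 0.020) in the difference, and ACO1 (-0.009 to 0.029) between controls. Depth limits SLC40A1 most, at 61 to 102 counts.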
